A study of Caenorhabditis elegans with 4 samples.

Results

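The 10 genes described here make or serve the machinery that licenses and copies DNA in Caenorhabditis elegans: the 6 subunits of the MCM helicase (mcm-2, mcm-3, mcm-4, mcm-5, mcm-6 and mcm-7), the licensing factors cdc-6 and cdt-1, the sliding clamp pcn-1 and the dUTPase dut-1. They were found by gene symbol among 14943 named genes on the array, each through 1 probe annotated to that gene alone, and all 10 had a value on all 4 arrays. Total RNA came from 4 preps of L4 larvae, the last larval stage, of the genotype labelled glp-4, and every prep had its own 2-channel array, whose other channel held a mixed-stage wild-type reference. The labels name no allele of glp-4, no growth temperature, no age and no way of staging, and nothing is said of how the preps were grown, so the tests measure the spread between these preps. The product of glp-4 is a cytoplasmic enzyme that charges tRNA with valine, and the gene's temperature-sensitive mutants are known for producing very few germ cells when grown warm. Its only probe also lists agef-1, so the arrays give no separate check of the glp-4 genotype.

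A replication origin is licensed when CDC-6 and CDT-1, acting on the origin recognition complex, load the MCM helicase onto DNA before S phase. The kinase DDK and cyclin-dependent kinases then turn the loaded helicase into the moving CMG helicase, and PCN-1 (PCNA) holds the polymerases on the DNA behind it, while dUTPase keeps uracil out of the new strand. In an adult hermaphrodite the dividing cells are those of the germline, and embryos divide rapidly from maternal stores of these proteins and their mRNAs.

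Each value is a deposited log2 ratio. Lower means lower in glp-4 L4 than in the reference, which is the likely direction of the ratio from the order of the channels in the labels, though no label states it. The reference differs from the preps in genotype and in stage, and these arrays cannot tell the genotype and the stage apart. In whole-animal RNA, fewer cells of a type and less RNA per cell cannot be told apart either. Array medians over all probes ran from -0.12 to 0.02. The number of arrays limits the precision.

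All 6 MCM subunits, pcn-1 and dut-1 were lower in glp-4 L4, by 3.01- to 6.12-fold, while cdc-6 was lower by 1.53-fold and cdt-1 did not pass the test. Thus 9 of the 10 genes were called lower and 0 higher (limma, Benjamini-Hochberg adjusted p under 0.05 over 19989 items), where 24.1% of all named genes tested were lower and 23.4% higher. Past a 2-fold change, tested with limma's treat, lay 8 of the 10, against 4.69% of named genes. Below 0 on every array were again 9 of 10, against 29.9% of named genes with 4 values. The median of the 10 mean log2 ratios was -1.95, and that of all 14940 named genes tested was -0.02.

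**Figure D1:**
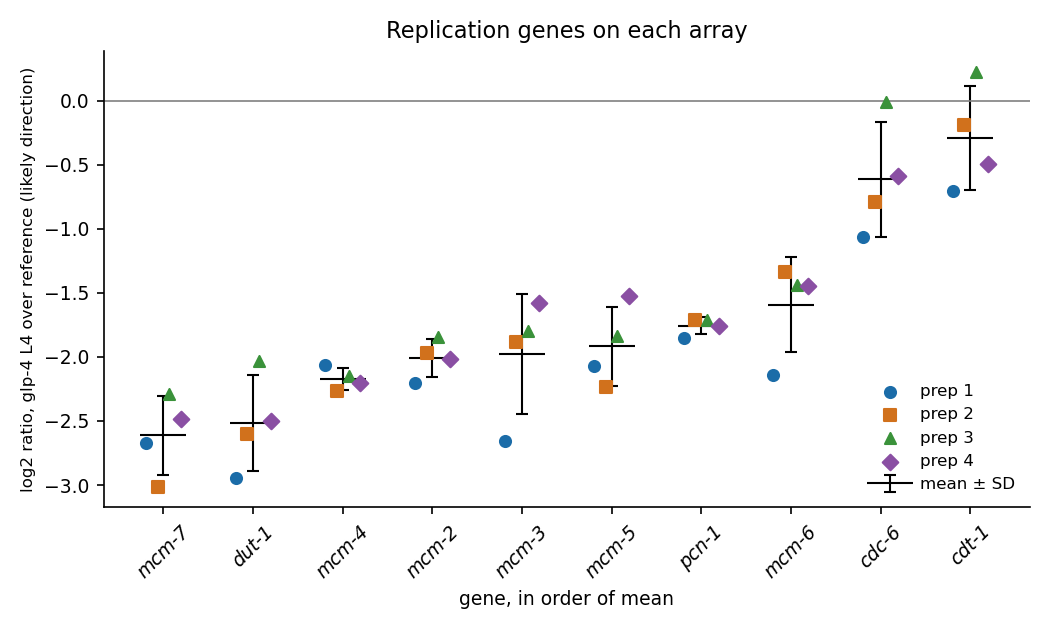
Deposited log2 ratio (vertical axis, no unit) of each of the 10 genes on each of the 4 arrays, with a symbol per prep and the mean ± SD as a bar. The 6 MCM subunits, pcn-1 and dut-1 lie between -3.01 and -1.34 on every array, and cdc-6 and cdt-1 lie above them all, between -1.07 and 0.23.

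Among the helicase subunits, mcm-7 had the most negative ratio on every one of the 4 arrays. Its log2 ratios were -2.67, -3.01, -2.29 and -2.48 on preps 1 to 4, a mean of -2.61 ± 0.31 (SD, n = 4; limma adjusted p = 8.5e-06), or 6.12-fold lower with a 95% interval of 4.75 to 7.87. MCM-7 belongs, with MCM-4 and MCM-6, to the subunits that form the helicase core in biochemical work on other species. Of all named genes tested, 1.59% had a mean as low as that of mcm-7.

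The partner subunit mcm-4 varied little between preps, at -2.06, -2.27, -2.15 and -2.20. Its mean of -2.17 ± 0.08 (SD, n = 4; limma adjusted p = 8.2e-06) stands for a 4.51-fold lower level, with an interval of 3.66 to 5.55. The mcm-4 values lay above those of mcm-7 without overlap. For mcm-6, the third of these, prep 1 stood apart at -2.14, against -1.34, -1.44 and -1.45 on preps 2 to 4. The mean was -1.59 ± 0.37 (SD, n = 4; limma adjusted p = 0.00014), or 3.01-fold lower with an interval of 2.30 to 3.95. On preps 2, 3 and 4 mcm-6 was the least negative subunit, and on prep 1 that was mcm-4. Of the 8 genes past 2-fold, mcm-6 passed by the narrowest margin (limma treat adjusted p = 0.047).

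The other subunits, MCM-2, MCM-3 and MCM-5, complete the ring, and MCM-2 with MCM-5 form the gate through which DNA is thought to enter it. On preps 1 to 4 mcm-2 had -2.20, -1.97, -1.84 and -2.02, a mean of -2.01 ± 0.15 (SD, n = 4; limma adjusted p = 1.4e-05). The gate partner mcm-5 had -2.07, -2.24, -1.84 and -1.52, with a mean of -1.92 ± 0.31 (SD, n = 4; limma adjusted p = 3.9e-05). These amount to 4.02-fold and 3.78-fold lower levels, and the ranges of mcm-2 and mcm-5 overlapped. The widest spread of the subunits was that of mcm-3, at -2.65, -1.88, -1.80 and -1.58. Its mean was -1.98 ± 0.47 (SD, n = 4; limma adjusted p = 8.3e-05), or 3.94-fold lower, with prep 1 the lowest.

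The MCM subunits were close to each other on prep 1, where 0.61 on the log2 scale separated the most from the least negative, and widest apart on prep 2, at 1.68. Of the 15 pairs of subunits, 4 had ranges over the preps that did not overlap. All 4 pairs set mcm-7 below another subunit (mcm-2, mcm-4, mcm-5 and mcm-6), and mcm-7 and mcm-3 overlapped. The ranges of the remaining pairs overlapped. Compared array by array, mcm-6 was still above mcm-3 on 4 of 4 preps, by 0.39 ± 0.19 (SD over 4 preps), and above mcm-2 on 4 of 4, by 0.42 ± 0.25 (SD over 4 preps).

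The sliding clamp gene pcn-1 gave nearly the same ratio on every array, at -1.85, -1.71, -1.71 and -1.76. Its mean of -1.76 ± 0.07 (SD, n = 4; limma adjusted p = 2.2e-05) corresponds to a 3.38-fold lower level, with an interval of 2.75 to 4.16. The SD of pcn-1 was the smallest of the 10 genes. For dut-1, whose enzyme hydrolyses dUTP, preps 1 to 4 gave -2.94, -2.60, -2.04 and -2.50. The mean was -2.52 ± 0.37 (SD, n = 4; limma adjusted p = 1.4e-05), or 5.73-fold lower with an interval of 4.37 to 7.52. The ranges of dut-1 and mcm-7 overlapped, and which of them was lower differed between preps, with mcm-7 lower on 2 of 4.

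The helicase loaders were the exception in the group. CDC-6 is an ATPase that brings the helicase to origins, and its gene had log2 ratios of -1.07, -0.79, -0.01 and -0.59 on preps 1 to 4. On prep 3 cdc-6 was at the level of the reference, and the other preps were below it. The mean of -0.615 ± 0.45 (SD, n = 4; limma adjusted p = 0.027) is a 1.53-fold lower level, with an interval of 1.14 to 2.06. That call ended when prep 1, 2 or 4 was left out (limma adjusted p = 0.064, 0.103 and 0.082), when the arrays were centred on their medians (limma adjusted p = 0.051) or centred and scaled alike (limma adjusted p = 0.052), and without variance moderation (adjusted p = 0.15).

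CDT-1 works with CDC-6 in loading and is degraded during S phase, which limits each origin to firing once per cycle. Its gene had -0.70, -0.19, 0.23 and -0.49, so prep 3 lay above the reference and the other preps below. The mean of -0.29 ± 0.40 (SD, n = 4; limma adjusted p = 0.22) did not pass. Its 95% interval, from -0.70 to 0.12, leaves out a mean ratio lower by 2-fold or more. That interval covers only the spread between these preps, and a dim spot could not be told from a bright one. It therefore does not exclude a 2-fold lower RNA level. Of named genes tested, 17.98% had a mean as low as that of cdc-6 and 32.7% as low as that of cdt-1.

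**Figure D2:**
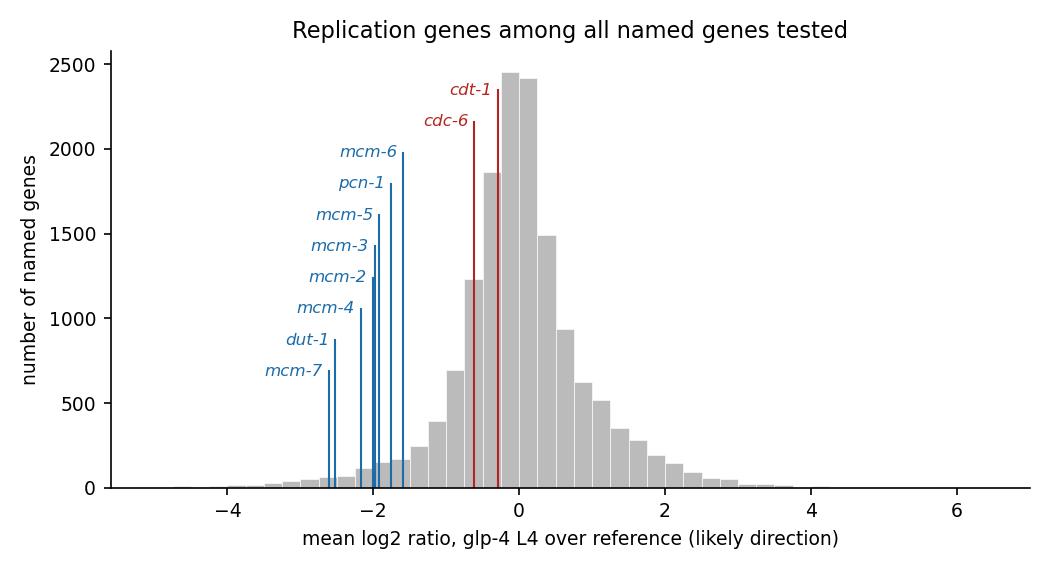
Number of named genes (vertical axis) by mean log2 ratio over the 4 preps (horizontal axis, grey bars 0.25 wide), with a line at the mean of each of the 10 genes; line heights only separate the names. The lines of the 6 MCM subunits, pcn-1 and dut-1 (blue) fall in the left tail at -2.61 to -1.59, and those of cdc-6 and cdt-1 (red) fall within the bulk of the distribution.

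Set in order of the mean, the genes run mcm-7, dut-1, mcm-4, mcm-2, mcm-3, mcm-5, pcn-1, mcm-6, cdc-6 and cdt-1. Of the 9 pairs of neighbours in this order, 1 had ranges that did not overlap, and that was the step from mcm-6 to cdc-6, with a difference of 0.98 ± 0.37 (SD over 4 preps) on the log2 scale. Each of the 16 pairs of a loader with 1 of the other 8 genes had ranges that did not overlap, and cdc-6 and cdt-1 overlapped each other. The median of the MCM subunits minus the mean of the loaders was -1.29, -1.61, -1.95 and -1.26 on preps 1 to 4. The gap was widest on prep 3, and its sign on each array follows from the ranges that did not overlap.

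Many of these genes had their lowest or highest value on the same prep. Prep 1 had the lowest value of 7 of the 10 genes and prep 2 that of the other 3, while prep 3 had the highest value of 6. The median of the 10 genes was -2.11, -1.92, -1.82 and -1.67 on preps 1 to 4. Across all named genes the median stayed between -0.05 and 0.02. A median over that many genes varies less than one over 10, so the sizes of these shifts cannot be compared. The median of the 60 genes in the other replication lists, described below, was also lowest on prep 1, at -1.05 against -0.74 to -0.62. How many of all named genes were lowest on prep 1 was not counted. Prep 1 and the other preps came from arrays with different title codes, preps 3 and 4 share a code, and the part of the code in these shifts was not tested.

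Upstream of the loaders, genes of origin recognition and of licensing control were mostly lower. Of 8 measured genes, 6 (75%) were lower, 0 higher and 2 did not pass, with a list median of -0.63. Over all named genes, 24.1% were lower and 23.4% higher. The origin recognition subunit gene orc-1 had -2.05, -2.24, -1.84 and -1.85 on preps 1 to 4, a mean of -1.996 ± 0.19 (SD, n = 4; limma adjusted p = 1.7e-05). For orc-5 the values were -2.08, -1.91, -1.73 and -1.95, a mean of -1.92 ± 0.15 (SD, n = 4; limma adjusted p = 1.8e-05). Both lay within the range of the MCM subunits. Other genes of this list, named after their values were seen, had smaller ratios: orc-2 had -0.43 ± 0.25 (SD, n = 4; limma adjusted p = 0.045), and gmn-1, the geminin that binds and inhibits CDT-1, had -1.315 ± 0.24 (SD, n = 4; limma adjusted p = 0.00018). CUL-4 and DDB-1 form the ubiquitin ligase known to degrade CDT-1 in this species. Their genes had means of -0.46 ± 0.65 for cul-4 (SD, n = 4; limma adjusted p = 0.15) and -0.48 ± 0.27 for ddb-1 (SD, n = 4; limma adjusted p = 0.032), and the cul-4 mean rests on prep 1, at -1.43 against -0.16 to -0.11 on the others. Of this list, 3 genes were lower without prep 4.

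Of 8 measured genes of origin firing and of the replisome, 8 were lower, beside 24.1% of all named genes. The list median was -1.19. The count of lower genes was 6 to 7 with any 1 prep left out and 6 with arrays centred. It was 7 with the shared title code as a block or with preps 3 and 4 averaged. Below 0 on every array were 7 of the 8 genes. The most negative was cdc-7, the kinase subunit of DDK that acts on the loaded helicase, at -2.40, -2.54, -2.25 and -2.20, a mean of -2.35 ± 0.15 (SD, n = 4; limma adjusted p = 7.0e-06). PSF-1 is a subunit of GINS, a part of the CMG helicase, and psf-1 had nearly 1 value on all arrays, with a mean of -1.44 ± 0.02 (SD, n = 4; limma adjusted p = 5.5e-05). The psf-1 values, from -1.46 to -1.41, lay above every value of mcm-2, mcm-3, mcm-4, mcm-5 and mcm-7 and within the range of mcm-6.

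Of 7 measured genes of polymerases and primase, 6 (85.7%) were lower, 0 higher and 1 did not pass, with a list median of -0.68. Over all named genes, 24.1% were lower and 23.4% higher. The polymerase delta subunit gene pold-2 had -1.56 ± 0.29 and the primase subunit gene pri-2 had -1.39 ± 0.22 (SD, n = 4; limma adjusted p = 9.6e-05 and 0.000125). Of 12 genes of clamp loading, RPA and the lagging strand, 8 (66.7%) were lower, 0 higher and 4 did not pass, with a list median of -0.74. The DNA ligase gene lig-1, whose enzyme seals Okazaki fragments, had -1.87 ± 0.32, and rfc-3, a subunit of the loader that places PCN-1 on DNA, had -1.62 ± 0.26 (SD, n = 4; limma adjusted p = 4.5e-05 and 6.8e-05). Both lists had medians closer to 0 than that of the MCM subunits, which was -1.99, and no test of that difference was run.

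Nucleotide supply genes went in both directions. Of 8 measured genes, 3 (37.5%) were lower, 3 (37.5%) higher and 2 did not pass, with a list median of 0.20. Over all named genes the shares were 24.1% lower and 23.4% higher, and no test against them was run. The small subunit gene of ribonucleotide reductase, rnr-2, which makes deoxynucleotides, had -2.37, -1.76, -1.48 and -1.62, a mean of -1.81 ± 0.39 (SD, n = 4; limma adjusted p = 8.4e-05). The other lower genes were picked out after their values were known. The large subunit gene rnr-1 had -1.09 ± 0.06 (SD, n = 4; limma adjusted p = 0.00025), and adss-1, an adenylosuccinate synthetase gene of AMP synthesis, had -1.68 ± 0.20 (SD, n = 4; limma adjusted p = 4.3e-05). Together with dut-1, the reductase genes act on the deoxynucleotide pool. The higher genes encode enzymes of purine and pyrimidine synthesis, but adss-1, also of purine synthesis, was lower. Not called were gmps-1 at 0.34 ± 0.26 and ndk-1 at 0.07 ± 0.20 (SD, n = 4; limma adjusted p = 0.10 and 0.72). The purine enzyme gene pfas-1 had 1.89, 2.03, 2.16 and 2.14, a mean of 2.06 ± 0.12 (SD, n = 4; limma adjusted p = 1.2e-05), and the pyrimidine enzyme genes pyr-1 and umps-1 had means of 1.11 ± 0.31 and 0.72 ± 0.57 (SD, n = 4; limma adjusted p = 0.0007 and 0.024). Each of these 3 genes was above 0 on 4 of 4 arrays. The umps-1 call was lost without prep 2 (limma adjusted p = 0.11), without prep 3 (limma adjusted p = 0.0505) and without variance moderation (adjusted p = 0.16). It was also lost at an adjusted p under 0.01. The umps-1 value averages 2 probes, and in a fit per probe they were not both called higher.

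Genes of helicase unloading, which removes the ring when replication ends, were near the background: of 7 measured, 2 (28.6%) were lower, 1 (14.3%) higher and 4 not called, beside 24.1% lower and 23.4% higher over all named genes, with a list median of 0.05. The lower ones were lrr-1, the substrate receptor of the CUL-2 ligase that marks the terminated helicase, at -2.04 ± 0.35, and ubxn-3, a cofactor of the CDC-48 ATPase, at -0.75 ± 0.27 (SD, n = 4; limma adjusted p = 3.6e-05 and 0.0044). The higher one was cdc-48.2, a gene of that ATPase, at 0.41 ± 0.098 (SD, n = 4; limma adjusted p = 0.033), a call lost when prep 2, 3 or 4 was left out, with the shared title code as a block (limma adjusted p = 0.061) and with preps 3 and 4 averaged (limma adjusted p = 0.082). The gene cdc-48.2 has a close copy, cdc-48.1, whose transcripts may bind the same probe. The probe of cdc-48.1 itself had -0.33 ± 0.13 (SD, n = 4; limma adjusted p = 0.075), the opposite sign, and was not called. Of 10 genes of chromatin assembly and cohesion, 8 (80%) were lower, beside 24.1% of all named genes. Of this list 0 were higher and 2 did not pass, and the list median was -1.11. The lower genes were led by hmg-3, a FACT subunit, at -2.63 ± 0.16, and the histone chaperone gene asfl-1 at -2.49 ± 0.34 (SD, n = 4; limma adjusted p = 4.3e-06 and 1.3e-05). The gene hmg-4 is a close copy of hmg-3, and its own probe had -0.56 ± 0.65 (SD, n = 4; limma adjusted p = 0.085). Whether either probe binds both transcripts was not tested.

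Over these lists together, 41 of 60 genes (68.3%) were lower and 4 (6.67%) higher, with a median of -0.72, beside the 24.1% and 23.4% of all named genes. Those lists were drawn up with earlier results of these arrays known and are no independent evidence of the direction.

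**Figure D3:**
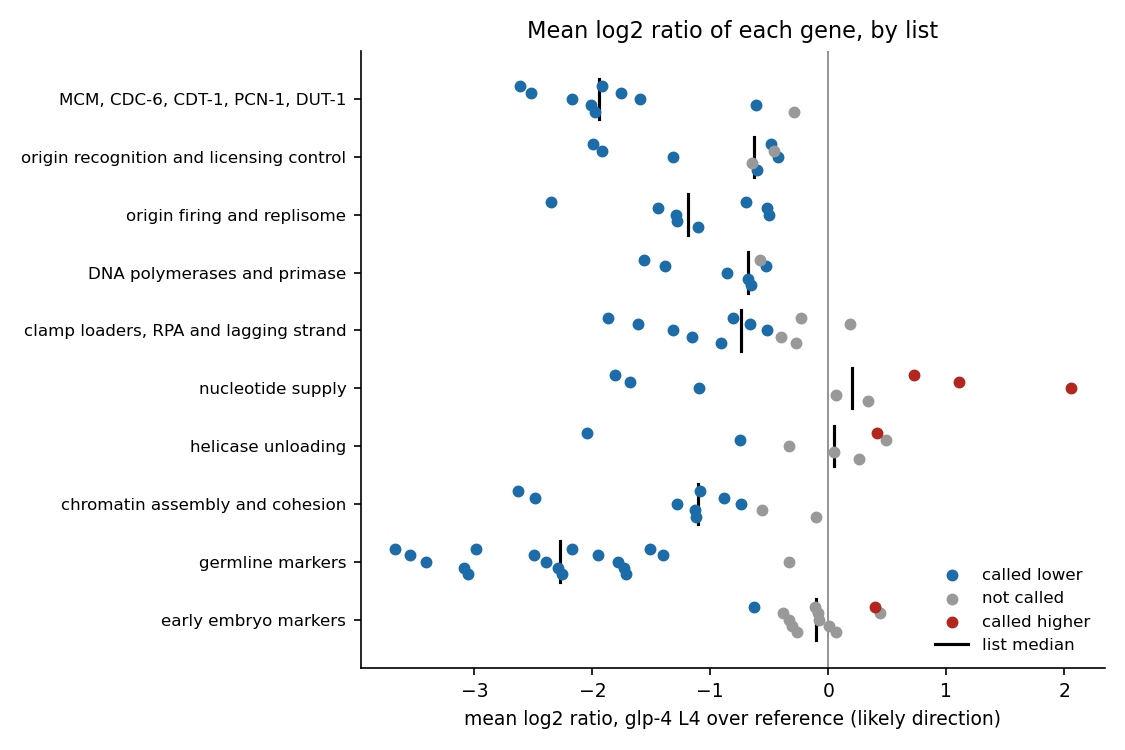
Mean log2 ratio over the 4 preps (horizontal axis) of every measured gene, by list (rows), with the 10 genes in the top row; blue marks genes called lower, red genes called higher, grey genes not called, and a black bar the list median. The median of the top row, -1.95, lies left of those of the replication lists, which run from -1.19 to 0.20, and right of that of the germline markers, -2.27.

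Germline markers were lower as well. Of 18 measured, 17 (94.4%) were lower and 0 higher, beside 24.1% lower and 23.4% higher over all named genes. The germline markers had a median of -2.27, and their median per array ran from -2.41 to -2.14. The list had no member at 0, and its means ran from -3.68 to -0.33. Genes listed as markers of early embryonic zygotic transcription lay near 0: of 12, 1 (8.33%) was lower (med-1 at -0.63 ± 0.28, SD, n = 4) and 1 (8.33%) higher (elt-7 at 0.40 ± 0.09, SD, n = 4), both named after their values were seen. Expression of these 12 genes at other stages was not checked. Without intensities, a ratio near 0 from dim spots cannot be told from equal RNA in the channels. The embryo list had a median of -0.10, and its median per array ran from -0.40 to 0.02. Leaving out a prep moved these embryo counts to between 0 and 3 lower and between 0 and 2 higher. The MCM subunits had a median of -2.17, -2.10, -1.84 and -1.80 on preps 1 to 4. The part of the germline or of embryos in the reference in the replication ratios was not tested.

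**Figure D4:**
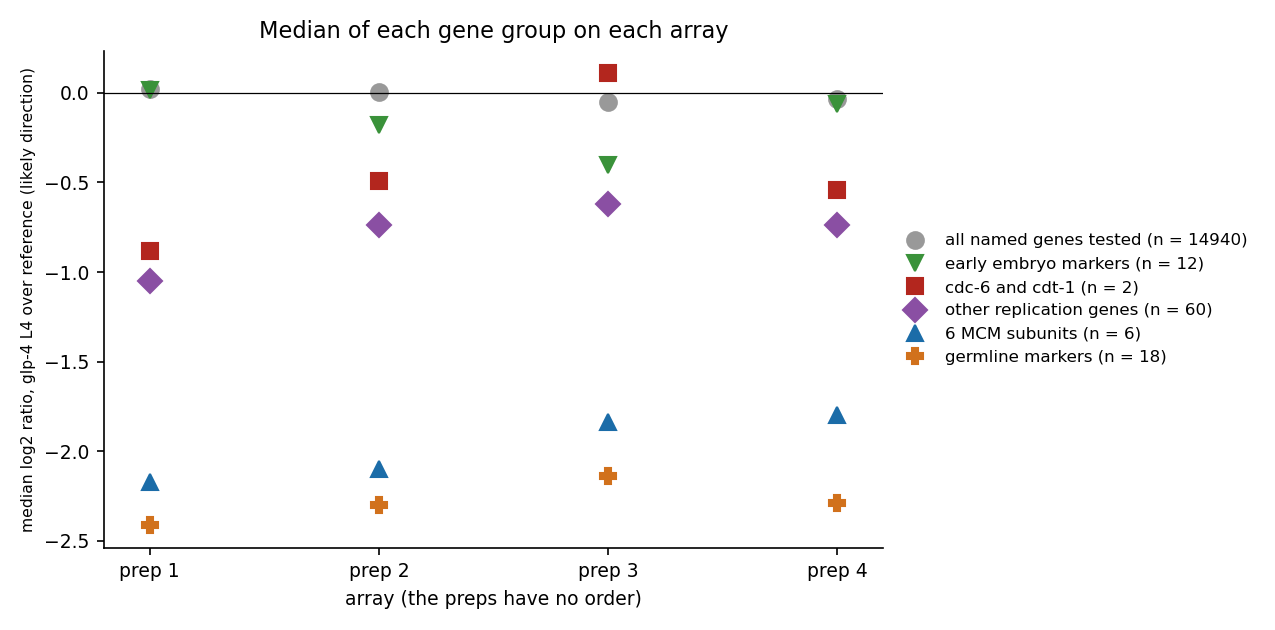
Median log2 ratio (vertical axis) of each gene group on each of the 4 arrays (horizontal axis, in no order), 1 symbol per group, with the number of genes in the key. The MCM subunits lie at -2.17 to -1.80 and the germline markers at -2.41 to -2.14, while cdc-6 and cdt-1 lie at -0.88 to 0.11 and the early embryo markers at -0.40 to 0.02.

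The genes outside the group whose ratios lay nearest to it on the 4 arrays were looked up among 14637 named genes, by the root mean square difference from the median of the 10 genes on each prep. The nearest was cdl-1, the histone mRNA stem-loop binding protein, with a difference of 0.069 and ratios of -2.13, -1.80, -1.79 and -1.64. Next came plk-1, a mitotic Polo kinase, at 0.108, then toe-2 at 0.114, cdk-1, the mitotic cyclin-dependent kinase, at 0.123, and kbp-5, a gene of the KNL-binding (kbp) family, at 0.138. Their means ran from -1.98 to -1.82, close to the group because the genes were picked for that. Of the 10 genes themselves mcm-5 was the nearest to that median, at 0.174, and 15 other named genes were nearer still. The other helicase genes lay at 0.184 (mcm-2) to 0.772 (mcm-7), where 766 other named genes were nearer than mcm-7, and the loaders lay at 1.30 (cdc-6) and 1.62 (cdt-1).

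The 10 genes lie apart from each other in the genome. In the RefSeq annotation of assembly WBcel235, which need not be the build behind the probes, mcm-4, cdc-6, cdt-1 and dut-1 are on chromosome I, mcm-2 on II, mcm-5 and mcm-6 on III, pcn-1 on IV, and mcm-3 and mcm-7 on V, and none is the next protein-coding gene of another. Of the 20 protein-coding genes that flank them, 12 were measured, and 4 of these were lower, 4 higher and 4 not called. Over all named genes tested, 24.1% were lower and 23.4% higher. The flanking genes not called were R10E4.3 at -0.37, C43E11.9 at -0.31, F32D1.3 at -0.26 and srxa-10 at 0.23 (means). Beside mcm-7 lies hpo-18, with a mean of 1.06 ± 0.27 (SD, n = 4; limma adjusted p = 0.00071) and the opposite sign on 4 of 4 arrays. Beside mcm-6 lies R10E11.9, at 1.15 ± 0.24 (SD, n = 4; limma adjusted p = 0.00038). The genes on either side of dut-1 differed in sign, K07A1.13 at 0.98 ± 0.14 and K07A1.3 at -0.91 ± 0.24 (SD, n = 4; limma adjusted p = 0.00058 and 0.0013). The cdc-73 gene beside pcn-1, at -0.49 ± 0.09 (SD, n = 4; limma adjusted p = 0.016), and nth-1 beside mcm-5, at -0.69 ± 0.15 (SD, n = 4; limma adjusted p = 0.0036), were lower by less than their neighbour. Beside cdc-6, acin-1 had -0.55 ± 0.34 (SD, n = 4; limma adjusted p = 0.026), and txl-1 beside cdt-1 had 0.53 ± 0.43 (SD, n = 4; limma adjusted p = 0.045). These flanking genes were named after their values were seen.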

How the data were processed

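Per the labels, 4 two-channel arrays each set RNA of a glp-4 L4 prep beside the common mixed-stage wild-type reference. The deposited values are log2 ratios. Base 2 was read from the values, since on every array 100% of the ratios under 20 came out, to within 0.01, as whole thousandths. No source used here names the scanner, background correction, dye normalization or centring, and without intensities dim spots could not be told from bright ones. Of 21632 probes, 16450 had 1 symbol, 247 several and 4935 none here, from the platform annotation updated through gene ID or accession to RefSeq genes of WBcel235. A gene's probes were averaged per array.

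The mean ratio of each item (a named gene or an unnamed probe) with at least 3 values, 19989 in all, was tested against 0, two-sided, with limma 3.58.1 (R 4.3.3) and moderated variances, and adjusted by Benjamini-Hochberg over all items. The spread of the reference itself enters no test. A simulation of this comparison, in which 200 of 19989 items were changed, checked the steps: recovery was 7.58%, 86.6% and 100% for changes of 0.5, 1 and 2 in log2, and 8 of 138 calls were false. It used independent normal noise. In the data 4874 items were called lower and 4113 higher, so the adjustment is less strict there than in the simulation. The simulated recovery and false calls therefore do not measure those of the data. The text names all 10 genes, the 2 largest ratios and any opposite call in each replication list, and the 5 genes nearest to the group. The genes and lists were chosen with earlier results of these data known. Alternatives were other centring and scaling, other filters, each prep left out, the shared title code as a block or averaged, a fit per probe, other moderation, and other thresholds. Promoter and protein sequences were not analysed here.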

Additional observations from a re-analysis of the deposited data

Results flagged for a closer look

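By Dixon's ratio at its 95% critical value, 1 prep stood apart from the others in 3 of the 46 sets of 4 values that were checked, and about 2.3 would do so by chance, 1 set in 20. The mcm-6 ratio on prep 1 was -2.14, against -1.45 to -1.34 on the other preps. The cdc-48.2 ratio on prep 1 was 0.27, against 0.45 to 0.48. The toe-2 ratio on prep 1 was -2.13, against -1.83 to -1.77. In each of the 3, prep 1 was the lowest. The mcm-6 gene is among the 7 of the 10 replication genes that were lowest on prep 1. The toe-2 gene was picked for ratios near the median of those 10 on each prep. These sets therefore add nothing to that count, and the cause was not tested.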

How the results depend on the processing

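The 6 MCM subunits, pcn-1 and dut-1 stayed lower and past the threshold under all 15 alternatives run, with means between -2.72 (mcm-7) and -1.41 (mcm-6). The cdc-6 mean ran from -0.82 to -0.46 and lost its call under 8 of the 15, and that of cdt-1 ran from -0.46 to -0.15 and never passed. Of the 10 genes, 8 or 9 were called lower under each alternative, and leaving out a prep gave 8 to 9. A fit with every sign turned is not counted among the alternatives, since by construction it swaps lower and higher throughout. No paired analysis was possible because the 4 preps form a single group.

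At an adjusted p under 0.01, 3093 items were lower in place of 4874. Origin recognition and licensing control then had 3 lower genes, helicase unloading 0 higher, and the early embryo markers 0 lower and 0 higher. Without variance moderation 2781 items were lower and 2524 higher, with 3 lower for origin recognition, 5 for origin firing, 5 for chromatin assembly and 0 for embryo markers, and 2 higher for helicase unloading. Past 2-fold (limma treat) 842 items were lower and 876 higher. Lower genes then numbered 2 for origin recognition, 1 each for origin firing, polymerases and helicase unloading, 2 for clamp loaders and 2 for chromatin assembly, and 0 for embryo markers. Higher genes past 2-fold numbered 1 for nucleotide supply, 0 for helicase unloading and 0 for embryo markers. With the shared title code as a block (correlation 0.37), or preps 3 and 4 averaged, 0 genes of helicase unloading and 0 embryo markers were higher. Leaving out a prep gave 3 to 6 lower genes of origin recognition, 0 to 2 higher genes of helicase unloading, 0 to 3 lower and 0 to 2 higher embryo markers, a polymerase median of -0.81 to -0.66, and a helicase unloading median of -0.022 (without prep 3) to 0.12, so the sign of that median is not stable. Causes other than the thresholds themselves and the smaller number of preps were not tested. Signal over background was not used here, so dim spots could not be judged.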
